A study of Xenopus laevis with 8 samples.

Results

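Mitochondrial ribosomal protein genes, named mrpl for the large and mrps for the small subunit, were followed in RNA sequencing of wild-type Xenopus laevis ectodermal explants. Members were taken by their symbols, mrpl or mrps followed by a number, which gave 106 of the 45035 genes of the deposited count table, 61 mrpl and 45 mrps genes. Of these, 98 held enough counts to be tested (58 mrpl and 40 mrps). All explants came from wild-type embryos, were cultured in 0.6 x MMR, a frog saline, and were harvested as early neurulae. Libraries 1 and 2 were controls, libraries 3 and 4 carried Chordin, libraries 5 and 6 carried Pinhead with a Flag tag, and libraries 7 and 8, called Both, carried the pair. Chordin binds and blocks bone morphogenetic proteins outside the cell, and Pinhead is likewise secreted. The study's title names dorsal mesodermal genes induced by these proteins, and ribosomal genes are outside that question.

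The mitochondrial ribosome translates the few proteins that mitochondrial DNA encodes, all of them parts of the respiratory chain or of ATP synthase. Its RNAs come from mitochondrial DNA, but its proteins are made in the cytoplasm from nuclear genes and imported, so each member here is a nuclear transcript. Part of the proteins descend from the bacterial ribosome and part were added in mitochondria, and roles given below are those known from mammals or bacteria. In frog embryos mitochondria are laid down in the egg in large numbers. The cytoplasmic ribosome, built from proteins named rpl and rps, makes all other proteins and was set beside the mitochondrial family.

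Each library held 15052017 to 19677493 counts. Levels are given in CPM, read counts scaled to library size and then between libraries, and 1 CPM stood for 14.5 to 19 counts. CPM are not divided by gene length, so they compare a gene between libraries and not one gene with another. The expressed transcripts matched the labels: chrd.S stood at 0.483 and 0.656 CPM in control and 816 and 794 with Chordin, and pnhd.L at 1.21 and 0.328 CPM in control and 1254 and 739 with Pinhead. In Both chrd.S was at 793 and 934 CPM and pnhd.L at 429 and 486, 2.18-fold below the group with Pinhead alone. Comparisons of Both with Pinhead, and the interaction, therefore also hold a difference in pnhd.L level. Whether libraries of 1 group were separate cultures or animals is not said in the labels, so p-values measure the spread between these samples only, and that spread may be technical. Libraries 5 and 6, and 7 and 8, differed more than the other pairs did (mean chi-square per gene 8.65 and 11.8, against 3.08 and 3.03). In bulk tissue fewer cells of a type and less RNA per cell cannot be told apart. Summed levels of 18 gene copies of 9 epidermal markers were 42400 and 43400 CPM in control, 14700 and 14800 in Chordin, 38800 and 41400 in Pinhead and 12600 and 7630 in Both. Summed levels of 15 copies of 8 neural markers were 188 to 215 CPM in control, 3740 to 3960 in Chordin, 118 to 182 in Pinhead and 4350 to 4610 in Both, so groups with and without Chordin also differed in their tissue markers.

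Summed over all 106 members, the level was 1302 and 1271 CPM in control libraries, 1484 and 1489 in Chordin, 1187 and 1252 in Pinhead and 1447 and 1510 in Both. The 4 libraries with Chordin were all above the 4 without, and the Pinhead libraries were both below the controls. Group means were 1287 ± 21.7 CPM in control, 1486 ± 3.61 in Chordin, 1219 ± 46.1 in Pinhead and 1478 ± 44.7 in Both (SD, n = 2 each), that is 1.15-fold, 0.948-fold and 1.15-fold of control. The large-subunit sum was 811 and 783 CPM in control libraries, 929 and 935 in Chordin, 736 and 775 in Pinhead and 903 and 954 in Both. The small-subunit sum was 491 and 488 CPM in control libraries, 555 and 554 in Chordin, 451 and 476 in Pinhead and 544 and 556 in Both, and the ratio of the large to the small sum stayed between 1.61 and 1.71 in the 8 libraries.

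**Figure D1:**
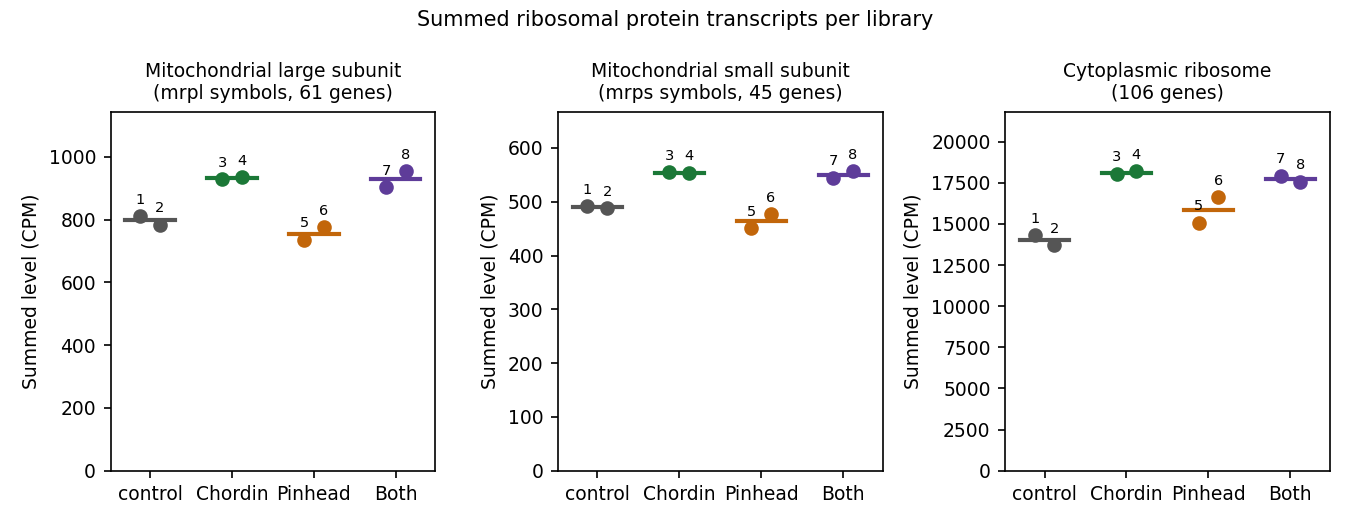
Summed level (CPM, vertical axis from 0) of the mrpl genes, the mrps genes and the cytoplasmic ribosomal protein genes in each of the 8 libraries, as points marked with the library number, with a bar at the mean of each group. In the 3 panels the libraries with Chordin (3, 4, 7 and 8) lie above those without it (1, 2, 5 and 6), and Pinhead lies below control in both mitochondrial panels and above it in the cytoplasmic one.

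Against control, Chordin raised more members than it lowered. By edgeR's quasi-likelihood test, with Benjamini-Hochberg adjustment over the 23130 genes tested and calls at an adjusted p under 0.05, 39 of 98 members were higher (39.8%) and 8 were lower (8.16%). Of all genes tested, 31.7% were called higher and 32% lower. Counted by symbol, 33 of 75 symbols had at least 1 copy higher and 7 at least 1 copy lower. Symbols with both copies tested had more than 1 chance of a call, and no such share was taken over all symbols. With DESeq2 25 members were higher and 4 lower, and 27% of all genes were higher, so the share called higher did not exceed the background there, while the lower share stayed below the 28% of all genes. Of the called members, 30 were at least 1.5-fold higher and 3 at least 1.5-fold lower (all genes 24.4% and 27.4%). The median log2 fold change of the members was 0.31, against 0.00 for all genes, and 71 members lay above 0. Without library 1 or 3 the number lower was 4.

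In the subunits and classes of protein the share called higher ran from 37.9% to 42.5%, against 31.7% of all genes. Among mrpl genes 22 of 58 were higher and 6 lower, with a median log2 fold change of 0.28, and among mrps genes 17 of 40 were higher and 2 lower, with a median of 0.38. The mrpl number higher fell most without library 2, and the mrpl number lower fell most without library 1 or 3. Members with a bacterial relative numbered 23 higher and 3 lower of 59 (median 0.31), and mitochondria-specific members 16 higher and 5 lower of 38 (median 0.29). The number higher in the first class fell most without library 2 or 4. In the second class the number lower fell most without library 1, 2 or 3. Over all genes both numbers fell in these fits too. Without library 2 the shares higher of mrpl genes and of the first class were not above that of all genes. Differences between the subunits or classes were not tested. One member, mrps36.S, is named as a ribosomal protein but belongs to the 2-oxoglutarate dehydrogenase complex in mammals, and it stood at 15.5 and 12.8 CPM in control libraries, 15.1 and 15.2 in Chordin, 10.7 and 14.9 in Pinhead and 15.4 and 15.1 in Both.

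**Figure D2:**
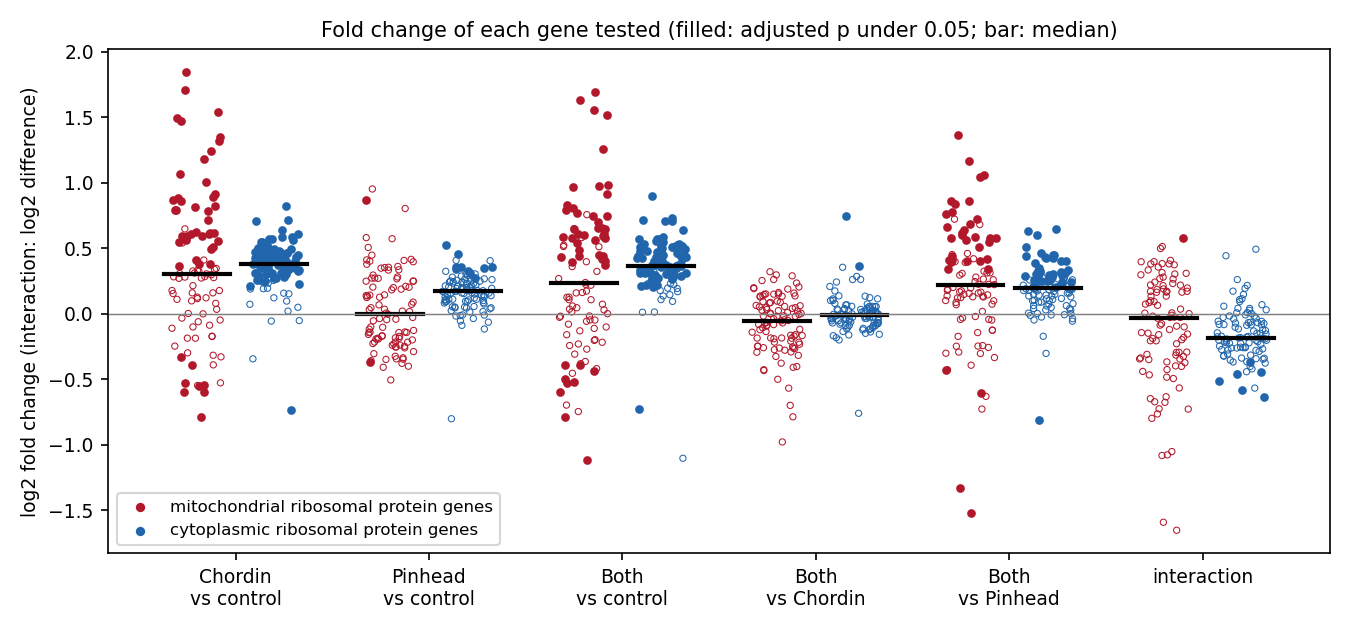
Log2 fold change (vertical axis) of each of the 98 mitochondrial and 102 cytoplasmic ribosomal protein genes tested, in the 5 comparisons and the interaction, with filled points for genes called at an adjusted p under 0.05 and a bar at each median. With Chordin the mitochondrial genes spread from -0.79 to 1.85 while most cytoplasmic genes lie close together, and the mitochondrial points are nearly all open in Pinhead against control and all open in Both against Chordin.

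The small subunit binds the messenger and reads its codons. Its largest rise was in mrps15.L, a relative of bacterial S15, which binds the small ribosomal RNA early in assembly. It stood at 3.32 and 3.81 CPM in control libraries, 11.2 and 14.4 in Chordin, 5.64 and 4.4 in Pinhead and 9.72 and 11.2 in Both. All 4 libraries with Chordin were above the 4 without, and the Chordin group was 3.59-fold above control (log2 1.85 ± 0.21 SE, adjusted p = 5.44e-05). The gene mrps35.L encodes a mitochondria-specific protein, and its level was 3.38 and 4.86 CPM in control libraries, 10.1 and 12.6 in Chordin, 6.8 and 8.26 in Pinhead and 10.6 and 9.12 in Both. With Chordin it was 2.77-fold above control (log2 1.47 ± 0.22, adjusted p = 0.000326), and the Pinhead libraries lay between control and the rest. A relative of bacterial S12, the protein of the decoding centre, is encoded by mrps12. Its L copy was at 3.2 and 3.08 CPM in control libraries, 7.75 and 6.55 in Chordin, 4.32 and 3.65 in Pinhead and 6.73 and 5.59 in Both, a 2.27-fold difference of Chordin from control (adjusted p = 0.000915). For mrps31.S, a mitochondria-specific member, the levels were 8.21 and 7.02 CPM in control libraries, 16.7 and 15.3 in Chordin, 10.9 and 9.43 in Pinhead and 14 and 13.2 in Both, and Chordin stood 2.09-fold above control (adjusted p = 0.000192). Both of these genes had the 4 libraries with Chordin above the 4 without. The remaining mrps genes that rose had fold changes within the range of the family, 1.29 to 3.59.

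The large subunit joins amino acids and holds the exit tunnel for the new chain. The mitochondria-specific gene mrpl37.L stood at 7.6 and 8.46 CPM in control libraries, 22.8 and 22.5 in Chordin, 11.2 and 12.7 in Pinhead and 21.2 and 28.4 in Both. It was 2.82-fold higher with Chordin (log2 1.496 ± 0.16, adjusted p = 4.47e-05). The libraries with Chordin lay well above the rest. Both Pinhead libraries lay above control, without a call. Another member, mrpl1.S, encodes a relative of bacterial L1, the protein of the mobile stalk at which spent tRNA leaves. Its level was 4.47 and 4.2 CPM in control libraries, 10.2 and 11.5 in Chordin, 5.7 and 5.37 in Pinhead and 12.398 and 12.5 in Both, which put Chordin 2.5-fold above control (log2 1.32 ± 0.16, adjusted p = 7.63e-05). The mitochondria-specific mrpl39.L followed at 6.58 and 7.02 CPM in control libraries, 16.6 and 15.7 in Chordin, 8.65 and 9.29 in Pinhead and 14 and 12.7 in Both (2.37-fold, adjusted p = 4.75e-05). In both genes the groups with and without Chordin did not overlap. A relative of L22, which lines the exit tunnel, is encoded by mrpl22.L, at 9.54 and 9.97 CPM in control libraries, 17.4 and 18.6 in Chordin, 10.6 and 10.7 in Pinhead and 20.2 and 18.4 in Both (1.85-fold, adjusted p = 0.000203). A relative of L9 is encoded by mrpl9.S, at 13.3 ± 1.26 CPM in control (SD, n = 2), with 24.9 and 25.2 in Chordin, 12 and 12.5 in Pinhead and 21.6 and 20.1 in Both (1.88-fold, adjusted p = 0.000119). These 2 genes had control and Pinhead libraries close together and all libraries with Chordin higher. Although named for the small subunit, mrps30 encodes a protein of the large subunit in mammals. Its L copy was at 7.91 and 7.55 CPM in control libraries, 15.6 and 13.1 in Chordin, 10.1 and 10.5 in Pinhead and 13.8 and 13.3 in Both (1.85-fold, adjusted p = 0.000506), again with no overlap. The genes of both subunits described so far were picked for no overlap between Chordin and control, so that part was fixed by choice. Of all genes tested, 30.7% had all 4 libraries with Chordin above the 4 without.

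Members that were lower with Chordin differed by less than those that rose, 1.26-fold to 1.73-fold against 1.29-fold to 3.59-fold. The smallest adjusted p among them was that of mrps26.L, a mitochondria-specific gene of the small subunit, at 63.8 and 70.1 CPM in control libraries, 46.2 and 42.3 in Chordin, 51.2 and 52.4 in Pinhead and 50.03 and 52.1 in Both. Control was the highest group, Chordin the lowest, and the other groups lay between, with Chordin 1.51-fold below control (log2 -0.60 ± 0.10, adjusted p = 0.000488). For mrpl18.L, a relative of bacterial L18, which binds 5S RNA, the levels were 35.7 and 31.2 CPM in control libraries, 22 and 23.6 in Chordin, 26.7 and 28.1 in Pinhead and 22.1 and 24.3 in Both (1.47-fold lower, adjusted p = 0.00199). For mrps9.L, a relative of S9, they were 20.5 and 20.1 CPM in control libraries, 14.3 and 13.7 in Chordin, 16.7 and 15.2 in Pinhead and 13.8 and 17.2 in Both (1.46-fold lower, adjusted p = 0.00651). In both genes the Pinhead libraries fell between control and Chordin. Both copies of mrpl44, a protein with a ribonuclease III fold, were lower. The S copy was at 30.2 and 29.8 CPM in control libraries, 22.4 and 19.2 in Chordin, 25 and 22.8 in Pinhead and 19.9 and 22.5 in Both (1.44-fold, adjusted p = 0.00357), and the L copy, under 6 CPM throughout, at 3.38 and 3.67 CPM in control libraries, 1.66 and 2.4 in Chordin, 4.01 and 5.37 in Pinhead and 1.62 and 1.62 in Both (1.73-fold, adjusted p = 0.0332, called in 11 of 17 settings). Calls were also less secure for mrpl42.S (log2 -0.60 ± 0.22, adjusted p = 0.0374), mrpl23.S (log2 -0.39 ± 0.12, adjusted p = 0.017) and mrpl54.S (log2 -0.33 ± 0.12, adjusted p = 0.0318). Each of the last 3 lost its call without library 1 and without library 3. The highest adjusted p over the alternatives was 0.327 for mrpl42.S, 0.138 for mrpl23.S and 0.288 for mrpl54.S.

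**Figure D3:**
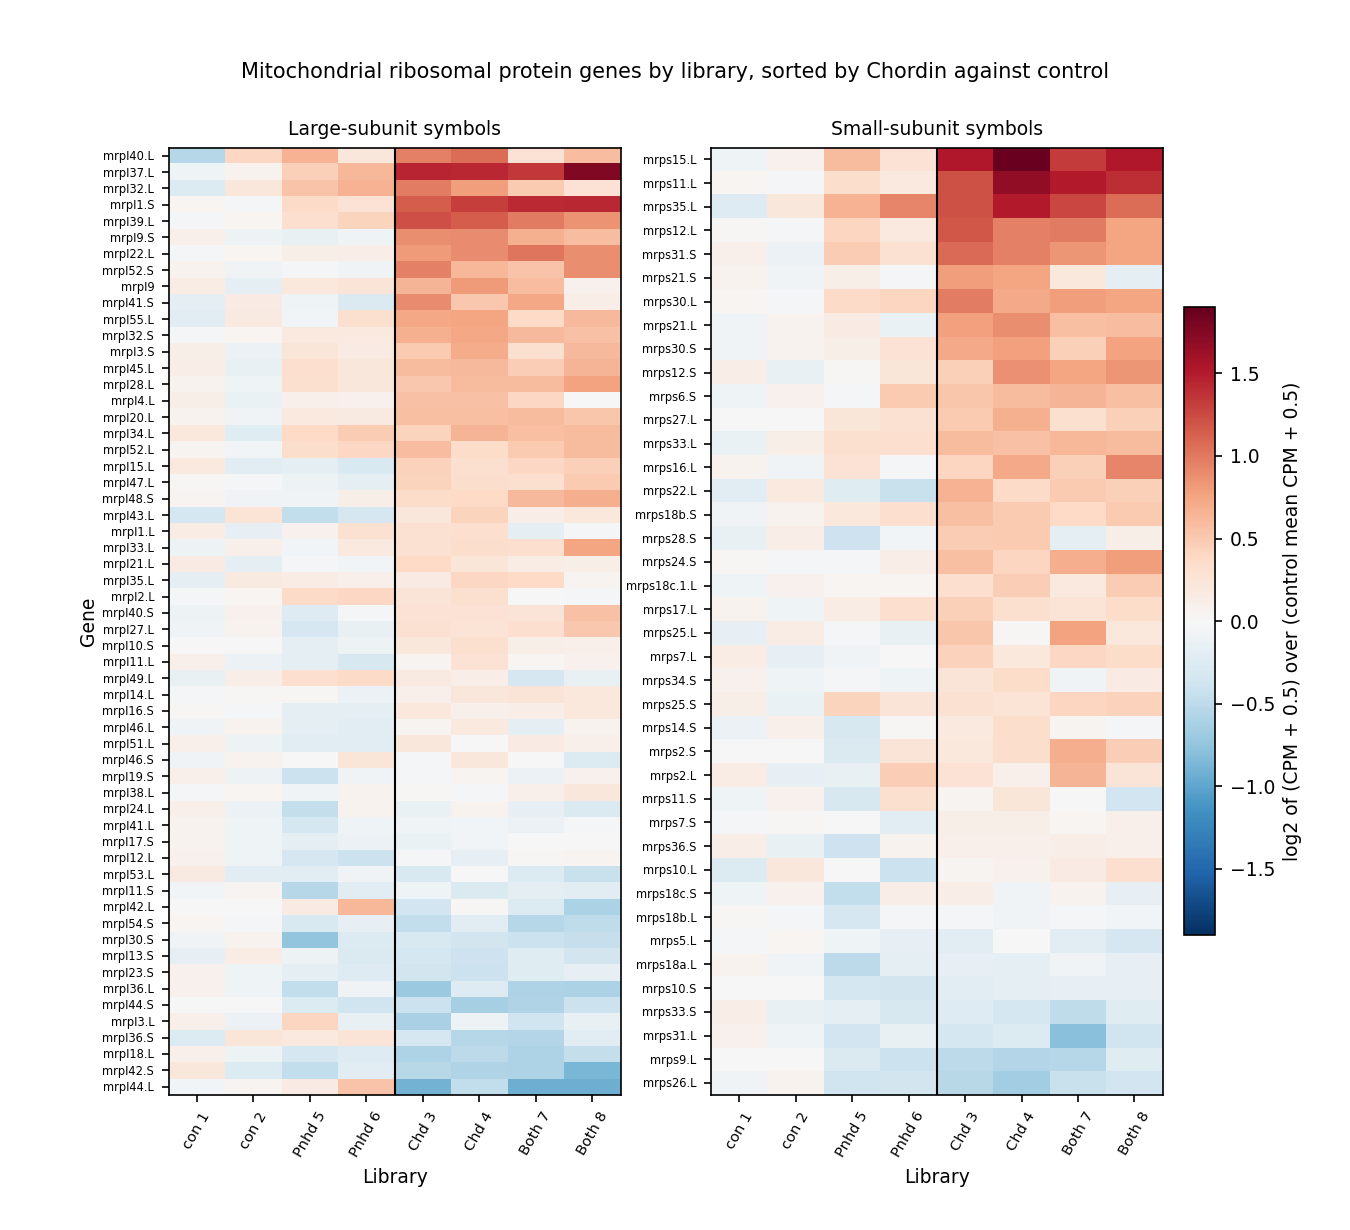
Level of each of the 98 members tested (mrpl genes left, mrps genes right) in each library, as log2 of (CPM + 0.5) over (control mean CPM + 0.5), in red where above and blue where below the control mean, with genes sorted by the fold change of Chordin against control and a line between the 4 libraries without and the 4 with Chordin. The upper genes are red in the libraries with Chordin and the lowest genes are blue there, while the Pinhead columns are paler.

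Among the members of highest CPM, a measure that also grows with gene length, the rises with Chordin were small. The highest mrpl genes were mrpl47.L, mrpl48.S and mrpl16.S. The levels of mrpl47.L, a relative of bacterial L29, were 61 and 59.4 CPM in control libraries, 81.1 and 75.7 in Chordin, 56.4 and 52.8 in Pinhead and 74.1 and 85.4 in Both, 1.3-fold above control with Chordin (adjusted p = 0.0084, and 0.0574 without library 2). Levels of mrpl48.S, which is mitochondria-specific, were 42.4 and 38.9 CPM in control libraries, 51.8 and 53.2 in Chordin, 38.8 and 43.8 in Pinhead and 62.7 and 65.6 in Both (1.29-fold, adjusted p = 0.00954, a call lost without library 2 or 4). The relative of L16, mrpl16.S, did not pass the test at 38.9 and 37.3 CPM in control libraries, 43.9 and 41 in Chordin, 33.5 and 33.5 in Pinhead and 41.5 and 43.6 in Both (adjusted p = 0.165). Highest among mrps genes were mrps26.L, described above, and a pair of S18-like genes. The first, mrps18a.L, whose protein sits in the large subunit in mammals, stood at 44.8 and 41.1 CPM in control libraries, 38.5 and 37.7 in Chordin, 30.2 and 38 in Pinhead and 40.9 and 38.7 in Both (adjusted p = 0.231). The second, mrps18b.L, was at 33.3 and 32.5 CPM in control libraries, 32.4 and 31.4 in Chordin, 26.4 and 32.2 in Pinhead and 32.1 and 31.7 in Both, with nearly equal libraries in control, Chordin and Both (adjusted p = 0.731). Over all 98 members the mean level ran from 0.84 to 68.2 CPM with a median of 10.9. Of the 4 lowest, mrpl42.L was at 0.845 and 0.853 CPM in control and 0.554 and 0.874 with Chordin and mrpl3.L at 1.15 and 0.919 CPM in control and 0.498 and 0.928 with Chordin, neither of them called. The other 2, mrpl40.L at 0.241 and 0.919 CPM in control and 1.61 and 1.75 with Chordin and mrpl32.L at 0.422 and 0.787 CPM in control and 1.66 and 1.42 with Chordin, were called higher (adjusted p = 0.0305 and 0.0176), but lost the call without library 1 or 3 and by DESeq2.

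Pinhead alone left few members called. Against control 1 member was higher and 1 lower (1.02% each), where 6.75% of all genes were higher and 3.92% lower. At an unadjusted p under 0.05 there were 11 members higher and 9 lower of 98, beside 3364 and 2821 of all 23130 genes tested. DESeq2 called 0 members in either direction, where 5.13% of all genes were higher and 2.66% lower. The median log2 fold change was 0.00, the middle of the family lay between -0.20 and 0.26 (lower and upper quartile), and the whole range was -0.50 to 0.95. The member called higher was mrps35.L (log2 0.87 ± 0.23, adjusted p = 0.0428), and the one called lower was mrps26.L (log2 -0.37 ± 0.10, adjusted p = 0.0396). Neither call held without any 1 of libraries 1 to 6, and over the alternatives their adjusted p ranged from 0.00245 to 0.272 and from 0.014 to 0.249.

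Explants with both proteins again had more members higher than lower. Against control 38 members were higher (38.8%) and 9 lower (9.18%), where 33.3% of all genes were higher and 32.1% lower. By at least 1.5-fold 25 of 98 were higher, near the 25.8% of all genes, and 3 were lower (all genes 27.8%). The median log2 fold change was 0.23, against 0.03 for all genes. Without library 1 the number lower was 5. The comparison shares its controls with that of Chordin, and side by side 31 members were called higher in both, 7 lower in both and 42 in neither. Beside mrps11.L, described with its copies below, the largest rises were in mrpl37.L (3.1-fold, adjusted p = 2.57e-05), mrps15.L (2.94-fold, adjusted p = 0.000171), mrpl1.S (2.87-fold, adjusted p = 3.05e-05) and mrps35.L (2.4-fold, adjusted p = 0.000885). They were followed by mrpl22.L at 1.98-fold and mrpl39.L at 1.96-fold. Lower were mrpl44.L (2.17-fold), mrpl42.S (1.72-fold, a call lost without library 1 or 8), mrps31.L (1.51-fold, lost without library 1 or 7), mrpl18.L (1.44-fold), mrpl54.S (1.43-fold), mrpl44.S (1.41-fold), mrps26.L (1.31-fold), mrps9.L (1.31-fold) and mrpl30.S (1.35-fold). The last is a relative of L30, and its call was lost in 9 of 16 alternatives, with an adjusted p up to 0.234. In 40 of 98 members all 4 libraries with Chordin, alone or with Pinhead, were above all 4 without (40.8%, against 30.7% of all genes), and in 4, mrpl18.L, mrpl42.S, mrpl44.L and mrpl44.S, they were all below (4.08%, against 29.9%). In mrpl42.S the levels were 9.84 and 6.95 CPM in control libraries, 5.65 and 5.46 in Chordin, 5.96 and 7.22 in Pinhead and 5.42 and 4.36 in Both, with control library 1 well above all others.

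Adding Pinhead to Chordin left the family without a call. Between Both and Chordin 0 members were higher and 0 lower by edgeR, and DESeq2 also called 0, where 6.46% of all genes were higher and 4.25% lower by edgeR. At an unadjusted p under 0.05 there were 1 and 4 of 98 members, beside 3171 and 2580 of all 23130 genes tested. Log2 differences ran from -0.98 to 0.32 with a median of -0.05, and the absence of a call does not show that single members were alike.

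Against Pinhead alone, Both had 31 members higher and 4 lower (all genes 30.7% and 31%), so the share higher, 31.6%, was near that of the background and the share lower, 4.08%, was under it. With DESeq2 17 members were higher and 2 lower, where 24.9% of all genes were higher and 27% lower, so there the share higher was under the background too. Without library 1, 2 or 6 the number lower was 2. The median log2 fold change was 0.22, against 0.03 for all genes. After mrps11.L the largest rises were again in mrpl1.S (2.25-fold, adjusted p = 0.000142), mrpl37.L (2.08-fold, adjusted p = 0.000326), mrps15.L (2.07-fold, adjusted p = 0.00156) and mrpl22.L (1.81-fold, adjusted p = 0.000248). To these came mrps22.L, a mitochondria-specific gene at 4.65 and 6.23 CPM in control libraries, 8.86 and 7.15 in Chordin, 4.59 and 3.92 in Pinhead and 7.85 and 7.66 in Both (1.81-fold, adjusted p = 0.00606). In it Pinhead was the lowest group. Another was mrpl52.S, also mitochondria-specific, at 4.71 and 4.26 CPM in control libraries, 9.13 and 7.21 in Chordin, 4.43 and 4.27 in Pinhead and 6.79 and 8.73 in Both (1.78-fold, adjusted p = 0.00644). Both calls were lost with the first run column alone, with an adjusted p of 0.0829 and 0.106. The low-level copies mrpl44.L (2.87-fold, adjusted p = 0.00132) and mrpl42.L (2.51-fold, adjusted p = 0.0342) went the other way. So did the mitochondria-specific mrpl49.L, at 7.3 and 8.86 CPM in control libraries, 9.19 and 8.85 in Chordin, 10.2 and 10.5 in Pinhead and 6.35 and 7.27 in Both (1.52-fold lower in Both than with Pinhead, adjusted p = 0.00941), with Pinhead the highest group. For mrpl2.L, a relative of L2, the call (adjusted p = 0.0494) was lost in 15 of 16 alternatives.

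The interaction asks whether the 2 proteins together differ from the sum of their separate log2 changes. It was called in 1 member, mrps26.L, upward (log2 difference 0.58 ± 0.14, adjusted p = 0.0287), and in 0 members downward, where 5.24% of all genes were called upward and 5.72% downward. At an unadjusted p under 0.05 there were 7 upward and 9 downward of 98, beside 3304 and 3279 of all 23130 genes tested. The level of mrps26.L was 44.3 ± 2.76 CPM with Chordin, 51.8 ± 0.897 with Pinhead and 67 ± 4.49 in control (SD, n = 2 each). With both it was 51 ± 1.45 CPM, above Chordin alone and close to Pinhead alone. The interaction call was lost without any 1 of libraries 1 to 5.

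Xenopus laevis is an allotetraploid, and many genes kept a copy on each of its 2 subgenomes, marked .L and .S. The family held 76 symbols with such a suffix, of which 29 had both copies in the table (38.2%), 32 the L copy alone and 15 the S copy alone. For all symbols with a suffix the share with both was 57%, and for cytoplasmic ribosomal protein genes 83.9%. Copies were matched by the spelling of symbols alone, so mrps18c.1.L and mrps18c.S stood as separate symbols. Some pairs, such as mrps15 and mrps35, held a copy that did not pass the filter on low counts. These shares therefore describe symbols in the table, and which genes kept both copies was not tested. Both copies were tested for 22 mitochondrial symbols. With Chordin both were called higher in 5 pairs, both lower in 1 and a single copy in 9, with 15 pairs of the same sign. Without library 1, 2, 3 or 4 the number of pairs with both copies higher was 2, 2, 2 or 3, and without library 1, 2 or 3 the number with both lower was 0. In 46 cytoplasmic pairs with both copies tested, both were called higher in 33, both lower in 0 and a single copy in 10. Of these cytoplasmic pairs 44 were of the same sign. Such numbers were not taken over all pairs of copies in the table. The median absolute difference between the log2 fold changes of the 2 copies was 0.367 in mitochondrial and 0.132 in cytoplasmic pairs. Fold changes are also more precise in cytoplasmic pairs at their higher counts. Reads of near-identical copies could be exchanged in counting, and the handling of such reads is not stated in the labels.

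The pair that differed most was mrps11, a relative of bacterial S11 in the platform of the small subunit. Its L copy was at 1.75 and 1.64 CPM in control libraries, 4.6 and 6.55 in Chordin, 2.27 and 2 in Pinhead and 5.73 and 5.31 in Both, 3.28-fold higher with Chordin (log2 1.71 ± 0.26, adjusted p = 0.000372). Its S copy was at 1.87 and 2.17 CPM in control libraries, 2.1 and 2.46 in Chordin, 1.53 and 2.61 in Pinhead and 1.99 and 1.45 in Both (log2 0.18 ± 0.34, adjusted p = 0.665). The L copy separated the libraries with Chordin from the rest and the S copy did not, and the L share of the pair was 48.3% and 43.1% in control and 68.6% and 72.7% with Chordin. In mrps31 the copies moved apart: beside the rise of the S copy given above, the L copy was at 13.2 and 11.6 CPM in control libraries, 9.69 and 10.2 in Chordin, 9.55 and 11.2 in Pinhead and 6.92 and 9.45 in Both (log2 -0.32 ± 0.18, adjusted p = 0.146 with Chordin). With both proteins the L copy was called lower and the S copy higher. It was the 1 pair called in opposite directions in that comparison, a number that was 0 without library 1 or 7 and 2 without library 2 or 8. The L share went from 61.6% and 62.3% in control to 36.8% and 40% with Chordin and 33% and 41.7% with both. For mrpl1 the S copy rose as above while the L copy was at 5.43 and 4.33 CPM in control libraries, 6.09 and 6.23 in Chordin, 5.22 and 6.05 in Pinhead and 4.3 and 4.81 in Both (adjusted p = 0.169). The L share of mrpl1 was 54.9% and 50.8% in control and 37.4% and 35.1% with Chordin. Copies of mrpl3, a relative of L3, differed in level, with the S copy at 12.6 and 10.7 CPM in control libraries, 16.6 and 19.3 in Chordin, 13.7 and 13.1 in Pinhead and 14.5 and 18.1 in Both (1.54-fold with Chordin, adjusted p = 0.00637, and 0.0585 without library 2) and the L copy giving 2.91% to 10% of the pair. The copies of mrpl40, which is mitochondria-specific, were likewise unequal, with the S copy at 27.7 and 31.5 CPM in control libraries, 36 and 36 in Chordin, 24.8 and 28.9 in Pinhead and 35.1 and 44 in Both (adjusted p = 0.0929 with Chordin).

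**Figure D4:**
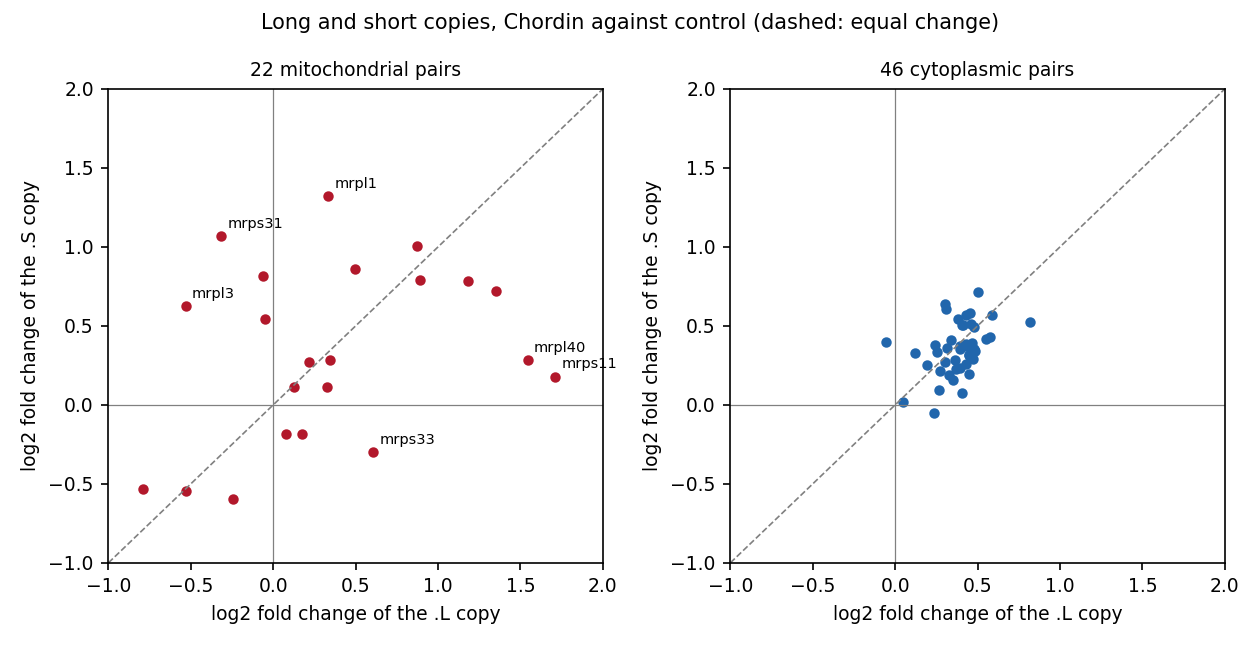
Log2 fold change of Chordin against control for the .S copy (vertical axis) against the .L copy (horizontal axis), one point per pair with both copies tested, for 22 mitochondrial and 46 cytoplasmic pairs, with a dashed line where both change alike. Cytoplasmic pairs sit in a tight cloud at the upper right of the origin, while mitochondrial pairs such as mrps11, mrpl1 and mrps31 lie far from the line.

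The remaining 8 of the 106 members did not pass the filter on low counts: mrpl17.L, mrps23.S and mrps24.L had 0 counts in every library, and mrpl27.S, mrpl39.S, mrps15.S, mrps28.L and mrps35.S had 0 to 11 counts per library. None of these 8 symbols appears in RefSeq's annotation of the Xenopus_laevis_v10.1 assembly, which held 90 of the 106 members. The mean level of the 16 members without a RefSeq symbol had a median of 0.748 CPM, against 11.9 CPM for the 90 with one. In the same annotation mrps11 and mrpl46 are neighbours on chromosomes 3L and 3S. Beside the rise of mrps11.L, its neighbour mrpl46.L did not pass the test, with 13.8 and 15.3 CPM in control libraries, 15.1 and 16.7 in Chordin, 12.9 and 12.6 in Pinhead and 12.7 and 15.2 in Both (log2 0.13 ± 0.14, adjusted p = 0.438).

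Fold changes of the cytoplasmic family lay closer together. Symbols of rpl or rps and a number gave 121 genes, of which 15 that encode S6 kinases or a binding partner of a ribosomal protein were set apart, leaving 106 genes with 102 tested. Summed levels were 14310 and 13700 CPM in control libraries, 18060 and 18200 in Chordin, 15080 and 16640 in Pinhead and 17940 and 17570 in Both, 1.29-fold of control with Chordin, 1.13-fold with Pinhead and 1.27-fold with both. Chordin raised 82 of 102 genes (80.4%, against 31.7% of all genes) and lowered 1, but only 6 rose by at least 1.5-fold, whereas 30 of 39 higher mitochondrial members did. Without library 2 the number higher was 52. The median log2 fold change was 0.38, near the 0.31 of the mitochondrial family, and the interquartile range was 0.19 against 0.66. Over all genes tested the interquartile range was 1.555, wider than in either family. Median levels were 140.7 CPM in the cytoplasmic and 10.95 CPM in the mitochondrial family. At higher counts fold changes are more precise and smaller ones can be called. The largest rises were in rpl27a-like.L (1.77-fold, adjusted p = 9.94e-05), rpl4.S (1.64-fold, adjusted p = 3.71e-05), rpl22l1.L (1.64-fold, adjusted p = 0.00189) and rpl12.S (1.56-fold, adjusted p = 0.000341). The one that fell was rps10.L, at 188 and 188 CPM in control libraries, 112 and 113 in Chordin, 189 and 209 in Pinhead and 121 and 106 in Both (1.67-fold, adjusted p = 0.000121). Pinhead alone raised 10 cytoplasmic genes (9.8%, against 6.75% of all genes) and lowered 0 (all genes 3.92%), with a median of 0.17. The number higher fell without library 1 and rose without library 7 or 8, and so did the number over all genes. The ratio of the cytoplasmic to the mitochondrial sum was 11 and 10.8 in control, 12.2 in each Chordin library, and between 11.6 and 13.3 in the other 4, so it was lowest in control. No test was made of this ratio or of the difference between the families.

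Genes that work with the mitochondrial ribosome were counted in the same fit, against the same shares of all genes. These were 31.7% higher and 32% lower with Chordin, 33.3% and 32.1% in Both against control, and 6.75% and 3.92% with Pinhead. Ribosomal proteins of mitochondria that carry other names had 3 of 9 higher with Chordin (33.3%, near the share of all genes) and 0 lower, with a median log2 fold change of 0.22. Among them ptcd3.L, a pentatricopeptide protein of the small subunit, was at 17 and 17.4 CPM in control libraries, 46.8 and 43.5 in Chordin, 26.9 and 26.6 in Pinhead and 43.5 and 40.9 in Both (2.63-fold with Chordin, adjusted p = 2.68e-06, and 1.56-fold with Pinhead, adjusted p = 0.00485). Control was lowest, Pinhead next and the groups with Chordin highest, and the Pinhead call was lost without library 1 or 2. The other two were gadd45gip1.S of the large subunit (1.8-fold) and dap3.L, a GTP-binding protein of the small subunit (1.29-fold, adjusted p = 0.0232), whose call was lost in 6 of 16 alternatives, DESeq2 and those without library 1, 2 or 4 among them, with an adjusted p up to 0.355.

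Factors that assemble the ribosome or process mitochondrial RNA had 20 of 35 higher and 4 lower with Chordin, with a median log2 fold change of 0.63. The messenger-stabilising protein gene lrpprc.S was at 1.03 and 1.57 CPM in control libraries, 9.36 and 10.8 in Chordin, 3.96 and 3.23 in Pinhead and 11.1 and 9.17 in Both (7.77-fold with Chordin, adjusted p = 9.47e-06). For mterf3.S, needed in mice to build the ribosome, the levels were 3.5 and 4.26 CPM in control libraries, 15.8 and 18 in Chordin, 6.49 and 5.78 in Pinhead and 13.5 and 14.5 in Both (4.36-fold, adjusted p = 5.31e-06). In both genes control was lowest and Pinhead next. The assembly factors noa1.L, a GTPase, and mettl17.L rose 2.42-fold and 2.36-fold. Those lower were ybey.L (4.13-fold), both copies of hsd17b10 and rbfa.S, genes of RNA processing or ribosome maturation. With Pinhead 6 of the 35 were higher (17.1%, against 6.75% of all genes). This number fell without any 1 of libraries 1 to 6 and rose without 7 or 8, and so did the number higher over all genes. Among the 6 were lrpprc.S (2.79-fold, adjusted p = 0.0118) and pnpt1.S, an RNA-degrading enzyme (1.63-fold, adjusted p = 0.0181).

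Mitochondrial translation factors had 13 of 19 higher with Chordin and 0 lower (median log2 fold change 0.58). Fewer were higher without any 1 of libraries 1 to 4, and the number higher over all genes fell in these fits too. In Both against control 6 of 19 were higher (31.6%), which was near the share of all genes. The leading gene was lonp1.L, which encodes the matrix protease and no translation factor, at 6.46 and 6.82 CPM in control libraries, 26.1 and 27.8 in Chordin, 14.9 and 12.2 in Pinhead and 24.6 and 24.4 in Both (4.06-fold with Chordin, adjusted p = 1.97e-06, and 2.05-fold with Pinhead, adjusted p = 0.00238). The initiation factor mtif2.L rose 2.5-fold, the elongation factor gfm1.L 2.12-fold and guf1.L, a ribosome-binding GTPase, 2.61-fold. Mitochondrial aminoacyl-tRNA synthetases, which load tRNA, had 6 of 19 higher with Chordin (31.6%, near the share of all genes) and 3 lower (median 0.19), with 1 lower without library 2 or 3. Those lower were fars2.L, and gatb.L and qrsl1.L of an amidotransferase that corrects charged tRNA. Those that rose included lars2.L (3.73-fold), sars2.L (3.52-fold), wars2.S (3.4-fold) and yars2.L (1.61-fold), with adjusted p from 2.56e-05 to 0.00172.

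Genes of mitochondrial DNA maintenance and transcription had 9 of 17 higher and 2 lower with Chordin (median log2 fold change 0.50), and 1 lower without library 1, 2 or 4. The smallest adjusted p was that of c10orf2.L, which encodes the Twinkle helicase, at 8.87 and 9.25 CPM in control libraries, 28.8 and 29.9 in Chordin, 13.7 and 16.2 in Pinhead and 28.2 and 27.6 in Both (3.24-fold, adjusted p = 3.00e-06). The mitochondrial RNA polymerase gene polrmt.L was 3.05-fold, its initiation factor gene tfb2m.L 1.91-fold and the thymidine kinase gene tk2.S 2.67-fold higher. With Pinhead c10orf2.L (1.64-fold) and polrmt.L (1.69-fold) were the 2 members higher (11.8%, against 6.75% of all genes), and 0 remained so without library 1 or 2. Protein import genes had 12 of 27 higher and 3 lower (median 0.27), with 1 lower without library 2 or 4. The small Tim chaperone genes timm8a.L (1.99-fold) and timm13.L (1.83-fold) and the processing peptidase gene pmpcb.L (1.69-fold) rose, and the co-chaperonin gene hspe1.S fell (1.78-fold, adjusted p = 0.000286). The one import gene lower with Pinhead was timm50.S of the inner-membrane translocase (1.59-fold, adjusted p = 0.0222), a call lost without any 1 of libraries 1 to 5 and by DESeq2.

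Regulators of mitochondrial and ribosome synthesis had 14 of 22 copies higher and 5 lower with Chordin (median log2 fold change 0.35), and 9 or 8 higher without library 1 or 2. The transcription factor gene myc.S, known for driving ribosome synthesis, was at 93.1 and 85.9 CPM in control libraries, 548 and 536 in Chordin, 188 and 215 in Pinhead and 479.7 and 495 in Both (6.05-fold with Chordin, adjusted p = 6.54e-08, and 2.25-fold with Pinhead, adjusted p = 0.000121). Its relative mycn.L, known from neural progenitors, was at 0.483 and 1.05 CPM in control libraries, 22.6 and 20.5 in Chordin, 0.316 and 0.344 in Pinhead and 24.5 and 20.4 in Both (28.3-fold with Chordin, adjusted p = 5.78e-07). Thus myc.S was intermediate with Pinhead, whereas mycn.L was near 0 in every library without Chordin. Their other copies, myc.L and mycn.S, rose 1.81-fold and 49.6-fold with Chordin. The second member higher with Pinhead was ppargc1b.S, a coactivator gene at under 2 CPM throughout (5.24-fold, adjusted p = 0.0148), and its call was lost without library 1, 2 or 5. The 5 copies lower with Chordin were both copies of ppargc1a and of esrra and ppargc1b.L, genes known as activators of mitochondrial synthesis, and they are named here after their values were seen. Of these ppargc1a.L was at 9.54 and 8.46 CPM in control and 0.83 and 0.928 with Chordin (10.2-fold lower, adjusted p = 9.18e-05) and esrra.S at 7.79 and 7.87 CPM in control and 2.77 and 3.17 with Chordin (2.63-fold lower, adjusted p = 0.000756), so these copies and the myc genes went opposite ways, while ppargc1b.S was called higher with Chordin too (2.82-fold, adjusted p = 0.0283). Whether these regulators bear on the family was not tested.

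Cytoplasmic ribosome assembly genes, such as those of RNA polymerase I and nucleolar proteins, had 54 of 56 higher and 0 lower with Chordin (median log2 fold change 0.82). Examples were polr1a.L (2.6-fold), rrp9.S (2.33-fold), bysl.S (2.24-fold) and wdr43.S (2.13-fold). With Pinhead 22 were higher (39.3%, against 6.75% of all genes), led by bysl.S (1.72-fold) and polr1a.L (1.77-fold). This number fell without any 1 of libraries 1 to 5 and rose without 7 or 8, and so did the number higher over all genes. Cell division genes had 18 of 29 higher and 5 lower with Chordin (median 0.61), among them the replication genes mcm2.S (4.9-fold), pcna.L (4.61-fold), mcm5.L (3.98-fold) and mcm2.L (3.66-fold). With Pinhead 8 were lower (27.6%, against 3.92% of all genes), among them ccna2.L (1.36-fold) and mcm6.L (1.55-fold). The number lower fell without any 1 of libraries 1 to 5 and rose without library 6, 7 or 8. Over all genes the number lower with Pinhead also fell without any 1 of libraries 1 to 5 and rose without library 7 or 8, but it fell without library 6.

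**Figure D5:**
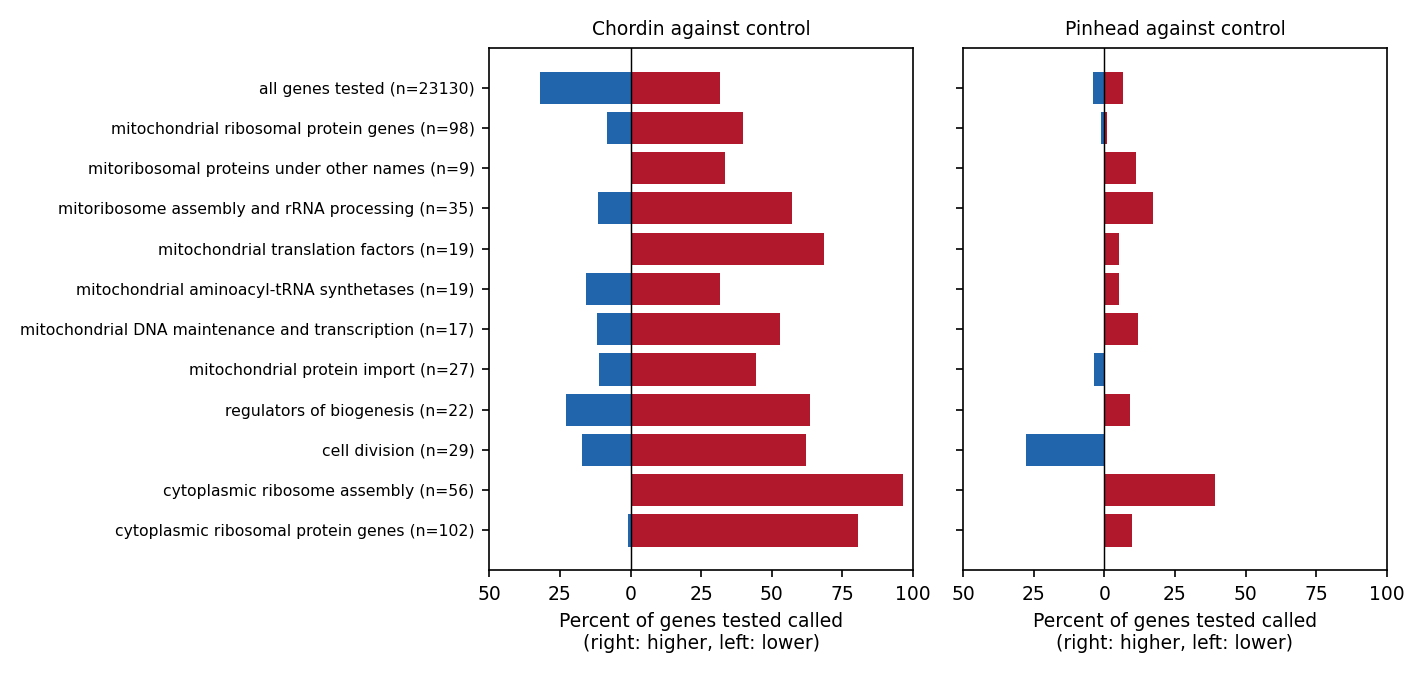
Percent of the genes tested in each list that were called higher (bars to the right, red) and lower (to the left, blue) in Chordin against control and in Pinhead against control, with the number tested in brackets and all genes tested as the top bar. The mitochondrial ribosomal protein bar at 39.8% is shorter than those of translation factors (68.4%) and cytoplasmic ribosome assembly (96.4%) with Chordin, and it is close to 0 with Pinhead.

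Tissue markers moved with Chordin in the same libraries as the family. Of 16 epidermal marker copies tested, 12 were lower and 2 higher with Chordin, and of 15 neural copies 15 were higher. Sums over 7 copies of multiciliated cell markers were 828 to 837 CPM in control, 8.41 to 8.53 in Chordin, 558 to 611 in Pinhead and 33.5 to 77.3 in Both. Sums over 5 copies of ionocyte markers were 535 to 563 CPM, 4.97 to 7.53, 470 to 538 and 2.07 to 64.5 in the same order. Ionocytes are known to be rich in mitochondria, and their markers were lowest in the groups where the family's sum was highest. Sums over 8 copies of mesoderm and muscle markers were 1.63 to 1.9 CPM in control, 3.38 to 3.82 in Chordin, 103 to 157 in Pinhead and 31.1 to 77.8 in Both. The endoderm sum over 10 copies, 128 to 129 CPM in control and 528 to 535 with Chordin, came mostly from a2m.S, and the blood sum over 4 copies was at most 1.42 CPM. The epidermal copies has1.L and xepsin.S and the blood copy hba1.S were at 0 in every library. The part of these markers in the family's changes was not tested.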

How the data were processed

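RNA of 8 libraries of Xenopus laevis ectodermal explants, 2 per group, was sequenced as paired-end reads, per the labels' protocols. Reads were aligned with HISAT2 (version not given in the sources used here), per the submitters' processing notes. The sources used here give neither the build nor the strand setting nor how reads were assigned to genes. The authors deposited a table of raw read counts per gene with 2 run columns for each library, which differed by less than libraries of 1 group did (mean chi-square per gene 1.39 to 1.52) and were summed here. Pinhead columns were matched to the labels although the spelling of the name differs slightly. Each library held 15052017 to 19677493 counts.

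The 4 groups were fitted together with edgeR 4.0.16 (R 4.3.3, limma 3.58.1): TMM scaling, filterByExpr (minimum count 10, minimum total 15; 23130 of 45035 genes kept), glmQLFit and glmQLFTest with 4 residual degrees of freedom, and Benjamini-Hochberg adjustment over all genes kept. CPM used the TMM library sizes, and a standard error is the absolute log2 fold change over the square root of F. The fit was run on simulated counts in which a small part of the genes was changed, in the Chordin group only. A change as widespread as that called with Chordin was not simulated. Alternatives were 3 other scalings, DESeq2 1.42.0, no filter, only the groups compared, each run column alone, copies summed, all genes of the cytoplasmic naming rule, and leaving out each library.

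Members and gene lists were chosen with earlier results of these data known. Genes were named by rule. Members were the called ones with the largest fold changes in each comparison, at a mean of at least 5 CPM and with no overlap between groups, the 6 highest and 4 lowest in level, and the 5 pairs of copies that differed most. Others were up to 4 genes per list by smallest adjusted p with Chordin and 2 with Pinhead, and 4 cytoplasmic genes per direction by fold. Outside the rule, and chosen after their values were seen, were mrpl44.L, mrpl46.L, mrps36.S, mrpl9 and the list genes named only as lower. Symbols were matched to RefSeq's Xenopus_laevis_v10.1 table. Its gene positions were used only to find members that are neighbours in that assembly. The count table was joined to it by symbol alone, since the build of the files is not known. No sequences were printed, and genes with a profile most like the family's were not sought, since the 8 libraries fall into 2 clusters.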

Additional observations from a re-analysis of the deposited data

Results flagged for a closer look

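One member met a test of the difference between effects. For mrps26.L, a mitochondria-specific gene of the small subunit, the effect of Pinhead on explants with Chordin differed from its effect on explants without Chordin by 0.5761 on the log2 scale (edgeR quasi-likelihood interaction, adjusted p = 0.0287). Pinhead without Chordin went with a log2 difference of -0.37, and with Chordin with one of 0.21; the first was called and the second was not. Over 15 alternatives the interaction ranged from 0.49 to 0.64 and its adjusted p from 0.0144 to 0.156, and the call was lost in 6 of them.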

How the results depend on the processing

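No paired analysis was possible because the libraries are numbered 1 to 8 and the groups share no replicate number. Among the genes named by rule, no called result changed sign under the alternatives run. Summed copies were left out of that check, and other called genes were not checked for sign. Among results with no call, the log2 fold change with Chordin went from -0.05 to as high as 0.08 for mrps18b.L and from -0.25 to as high as 0.06 for mrpl42.L, and the family's median with Pinhead ran from -0.04 to 0.04 when 1 library was left out. With RLE, upper-quartile or total-count scaling (the last added after the data were seen) the mitochondrial family's median log2 fold change with Chordin was 0.30, 0.38 and 0.43. The median of all genes moved as well, to -0.00519, 0.0726 and 0.123 in the same order. Depth limits the low members, of which 1 CPM is 14.5 to 19 counts.

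Among mitochondrial members, total counts gave 4 lower with Chordin. DESeq2 gave 25 higher and 4 lower with Chordin, 0 and 0 with Pinhead, and 17 and 2 in Both against Pinhead. With Pinhead RLE factors gave 2 lower, no filter 2 higher and 2 lower, only the groups compared 2 higher, the second run column alone 0 in each direction, and summed copies 0 higher. The second run column also gave 1 lower in Both against Chordin and 0 higher in the interaction, no filter gave 1 lower in the interaction, and only the groups compared gave 2 lower in Both against Pinhead.

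Among cytoplasmic genes, summing copies gave 45 higher with Chordin, 6 with Pinhead and 51 in Both against control. It gave 1 in Both against Chordin and 17 in Both against Pinhead. Summing merges the L and S copies, and 103 cytoplasmic rows with a suffix stand for 56 symbols. These counts are therefore over fewer genes than those of the main fit. Of all genes with copies summed, 30.1%, 6.57%, 31.7%, 6.27% and 29.1% were higher in the same order. DESeq2 gave 6 higher with Pinhead, 0 in Both against Chordin and 19 in Both against Pinhead. The first run column gave 3 higher with Pinhead, 24 in Both against Pinhead and 3 lower in the interaction, and the second gave 6 higher with Pinhead and 0 in Both against Chordin. In Both against Pinhead upper-quartile scaling gave 62 higher, total counts 74 and only the groups compared 5. Of all genes 34.4%, 35.8% and 26.3% were higher in the same order, against 30.7% in the main fit. No filter gave 2 lower in Both against control. Over all 121 genes of the naming rule 4, 6, 1 and 7 were lower in Chordin against control, Both against control, Both against Chordin and Both against Pinhead.

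Leaving out 1 library at a time, mitochondrial members called higher and lower ranged from 26 to 46 and 4 to 9 with Chordin, 0 to 2 and 0 to 3 with Pinhead, 27 to 38 and 5 to 9 in Both against control, 24 to 27 and 2 to 3 in Both against Pinhead, and 0 to 2 and 0 to 3 in the interaction, with 0 in each in Both against Chordin. Cytoplasmic genes ranged from 52 to 90 and 1 to 1, 0 to 23 and 0 to 1, 48 to 90 and 1 to 2, 12 to 49 and 1 to 2, 0 to 2 and 0 to 15, and 0 to 2 and 0 to 1 in the same order. Each of these fits left 1 group with a single library, and calls over all genes moved as well. With Chordin and with Pinhead, the number higher over all genes fell without any 1 of libraries 1 to 4. It rose without library 7 or 8. Such shifts were therefore not confined to these families. The cause of these differences was not tested.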

Other observations

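Most members that RefSeq's current symbols do not hold were low in the table. Exceptions were mrpl34.L (mean 11.04 CPM) and mrps18c.1.L (10.44 CPM), near the median of 10.95 CPM over all members tested. Of 16 such members 8 were tested, mrpl34.L, mrpl36.S, mrpl40.L, mrpl44.L, mrpl9, mrps10.L, mrps18c.1.L and mrps28.S. With Chordin 4 of these 8 were called higher and 1 lower, with a median log2 fold change of 0.48, against 35 higher and 7 lower of the 90 members with a RefSeq symbol (median 0.30). Whether these symbols stand for separate genes or for renamed copies was not tested. The unsuffixed mrpl9 was at low level beside mrpl9.S and was higher with Chordin as well (1.77-fold, adjusted p = 0.0209 by edgeR's quasi-likelihood test, called in 12 of 17 settings).

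Of the 39 members called higher with Chordin, 21 were called in all 17 settings, and of the 8 called lower 4 were: mrpl18.L, mrpl44.S, mrps26.L and mrps9.L.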
